A study of Oryza sativa with 16 samples.

Results

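The oxygen-evolving complex, the electron carriers and the plastid ATP synthase are described here through 9 nuclear genes, all found among the 55801 loci of the rice flag-leaf count table. They were taken by locus identifier, from a list written with earlier results of these data known, as the genes for the extrinsic photosystem II proteins PsbO and PsbP, the Rieske protein, plastocyanin, ferredoxin, both leaf ferredoxin-NADP+ reductases (LFNR1 and LFNR2) and the plastid ATP synthase subunits AtpC and AtpD. The identifiers are LOC_Os01g31690 (PsbO), LOC_Os07g04840 (PsbP), LOC_Os07g37030 (Rieske protein), LOC_Os06g01210 (plastocyanin), LOC_Os08g01380 (ferredoxin), LOC_Os06g01850 (LFNR1), LOC_Os02g01340 (LFNR2), LOC_Os07g32880 (AtpC) and LOC_Os02g51470 (AtpD). The deposited table lists identifiers without gene names, and the pairing of these names with the identifiers was not checked against an annotation here. All 9 genes were among the 28283 loci with at least 10 counts over all libraries, which were the loci tested.

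Flag-leaf RNA was sequenced from 2 genotypes grown in pots in a greenhouse, the drought-sensitive indica variety Swarna and DTY-IL, a drought-tolerant introgression line with segments of the donor N22 in the Swarna background. Reproductive-stage drought stress (RDS) began when water was withheld from plants at the R2 stage, with the soil held at 75% of field capacity for 9 days and at 50% for 3 more. Leaves were cut on day 12 of stress, at the R3 stage, from stressed plants and from well-watered controls. DTY-IL control, DTY-IL drought, Swarna control and Swarna drought each had 4 libraries, which the labels call independent biological replicates, and DTY-IL is a single line. The pots stood in a randomized complete block design, and the model reported below held no term for blocks.

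Photosynthetic electron transport starts at photosystem II, where water is oxidised and oxygen is released. Electrons then pass through the cytochrome b6f complex and plastocyanin to photosystem I, and from there through ferredoxin and ferredoxin-NADP+ reductase (FNR) to NADP+. The proton gradient built up on the way drives the plastid ATP synthase, and the ATP and NADPH are used in the Calvin cycle to fix carbon dioxide. Several core subunits of these complexes are encoded in the chloroplast genome and were not analysed here.

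The 16 libraries held between 14250527 and 19367077 estimated counts, and the 9 genes had between 3623 and 142950 counts in any library. Levels are given as CPM, counts scaled to a fixed library total, after TMM scaling, which sets the libraries to a common level of most genes. The TMM factors lay between 0.762 and 0.906 in the controls and between 1.09 and 1.31 under drought, so scaling bears on each drought comparison. The 4 listed green-leaf markers had a summed level of 64647 to 72608 CPM in well-watered DTY-IL and 75128 to 101711 CPM in well-watered Swarna, against 11100.0 to 22401 CPM in stressed DTY-IL and 7826 to 10639 CPM in stressed Swarna. They include Rubisco and antenna genes, which are themselves genes of photosynthesis. The 7 listed floral organ markers, 4 of which had at most 2 counts in any library, summed to 9.98 to 25.5 CPM over all libraries, the shoot meristem marker had at most 1 count and the root marker had 0 counts in all 16 libraries. In such bulk samples, fewer cells of a type and less RNA per cell cannot be told apart.

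Together the 9 genes took a share of the counts that was lower under drought in both genotypes. Their share of all counts was 2.14% ± 0.0966 in well-watered and 1.50% ± 0.285 in stressed DTY-IL (SD, n = 4). Swarna went from 2.50% ± 0.380 in control to 1.01% ± 0.237 under drought. Single DTY-IL libraries ranged from 2.04% to 2.26% when watered and from 1.09% to 1.75% when stressed, and the Swarna libraries from 2.04% to 2.86% and from 0.663% to 1.17%. Control and drought libraries did not overlap in either genotype. These shares scale each library by its total count alone. With TMM-scaled library sizes the mean share was 2.48% in control and 1.31% under drought in DTY-IL, and 3.15% and 0.803% in Swarna. A sum over the chosen genes was given no test.

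Under drought, all 9 genes were called lower in Swarna and 4 of 9 were called lower in DTY-IL. With TMM scaling all 9 estimates were negative in DTY-IL too, from -2.41 to -0.24. A gene was called when its log2 fold change was at least 1 in size and its edgeR quasi-likelihood p-value, adjusted by Benjamini-Hochberg over all tested loci, did not exceed 0.05. The 4 called in DTY-IL were PsbP, plastocyanin, ferredoxin and AtpC, and 11.5% of all tested loci were called lower in that comparison. For Swarna, where the count was 9 of 9, the share of tested loci called lower was 17.3%. Another 3 genes in DTY-IL, namely PsbO, LFNR2 and AtpD, passed the adjusted p without reaching the fold, which gave 7 of 9 by adjusted p alone against 19.2% of tested loci. With libraries scaled by total count alone these 3 did not pass, which left the same 4 of 9 by adjusted p. The median log2 change of the 9 genes was -0.77 in DTY-IL and -1.73 in Swarna, beside medians of 0.03 and 0.06 over all tested loci.

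**Figure D1:**
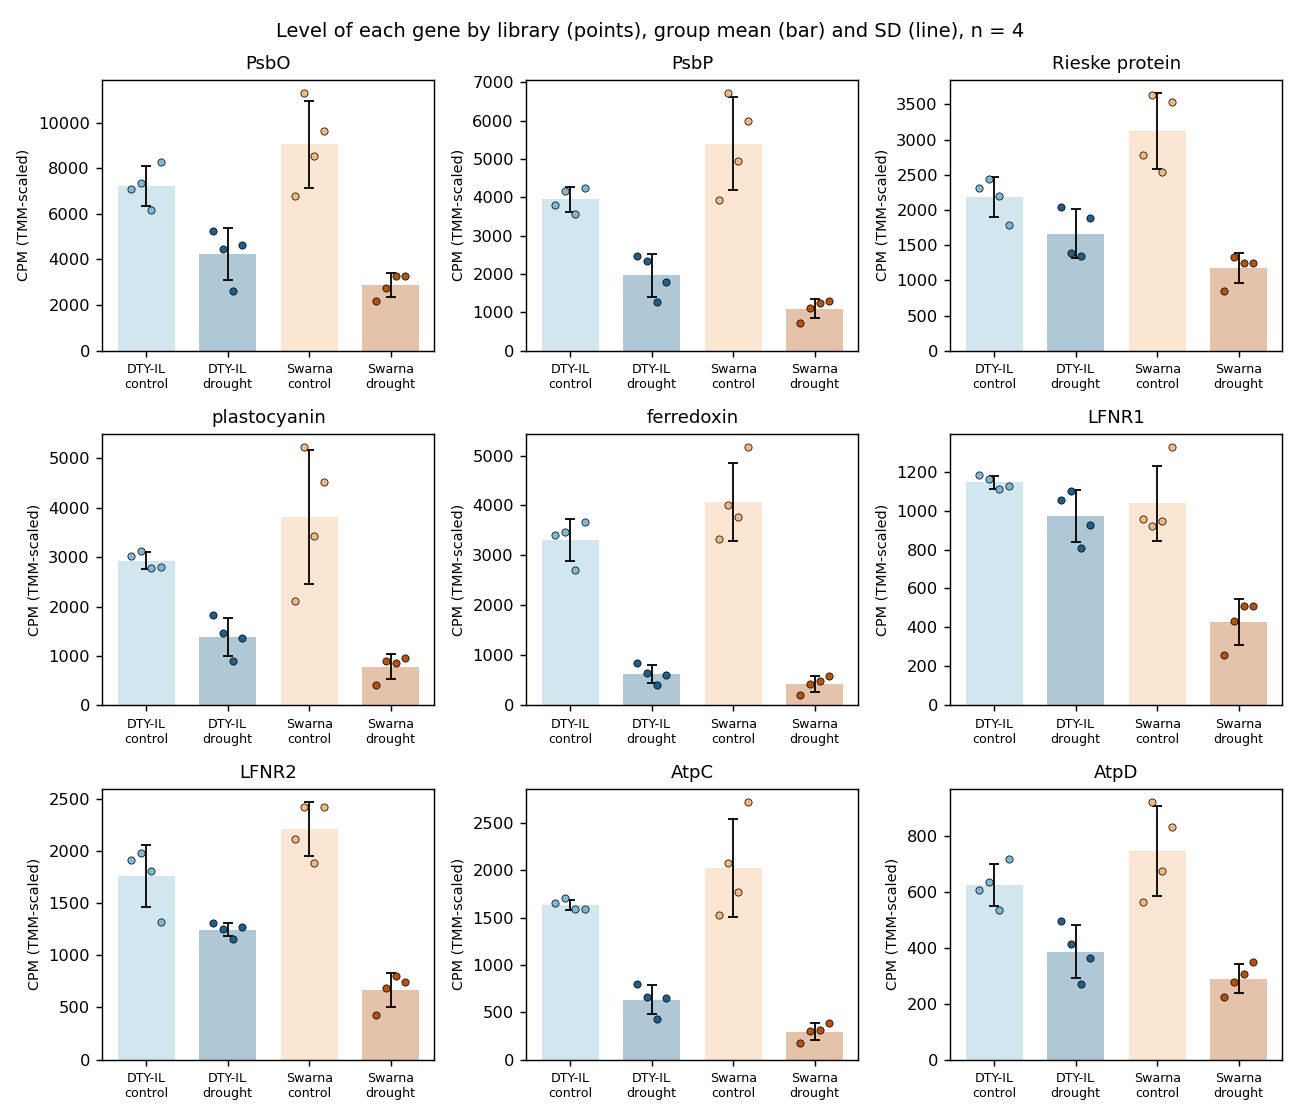
Level of each of the 9 genes in CPM after TMM scaling (vertical axes, starting at 0 and drawn to a different scale for each gene) in the 4 groups. Points are libraries, bars are group means and lines are SD (n = 4); the Swarna drought libraries lie below the Swarna control libraries for every gene, while the DTY-IL groups lie closer together and overlap for the Rieske protein.

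The extrinsic proteins of the oxygen-evolving complex sit on the lumen side of photosystem II and stabilise its manganese cluster. PsbO, the manganese-stabilising protein, had 7086, 7354, 6178 and 8269 CPM in well-watered DTY-IL and 5227, 4457, 2635 and 4641 CPM in stressed DTY-IL. In Swarna its levels were 6768, 11309.7, 8541 and 9614 CPM in control and 2168, 2762, 3285 and 3293 CPM under drought. All drought libraries lay below all control libraries of their own genotype, and DTY-IL drought 3 was the only DTY-IL drought library within the Swarna drought range. The log2 change of PsbO with drought was -0.77 ± 0.24 (SE) in DTY-IL (edgeR adjusted p 0.0157), which left 58.7% of the control level and did not reach the fold required for a call, and was -0.37 (edgeR adjusted p 0.172) with total-count scaling. In Swarna it fell by 1.65 ± 0.24 on the log2 scale (edgeR adjusted p 1.93e-05), to 31.8% of control, and with total-count scaling the value was -0.99, just short of a call.

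PsbP, which helps to retain calcium and chloride at the water-oxidising site, had larger estimated falls than PsbO. The well-watered DTY-IL libraries had 3802, 4169.9, 3558 and 4242 CPM, and the stressed ones 2468, 2340.2, 1260.2 and 1784 CPM. Swarna control had 3937, 6727, 4941 and 5983 CPM, and Swarna drought 733, 1113, 1253 and 1293 CPM. No drought library reached the range of its control, and 3 of 4 DTY-IL drought libraries were above every Swarna drought library. PsbP fell by 1.01 ± 0.24 on the log2 scale in DTY-IL (edgeR adjusted p 0.00294, 49.8% of control) and fell by 2.30 ± 0.25 in Swarna (edgeR adjusted p 6.57e-07, 20.3% of control). The DTY-IL value, -1.0062 before rounding, was just past the required fold, and the call was lost without DTY-IL control 2 or 4 or DTY-IL drought 4, and without DTY-IL drought 3, where it was -0.84.

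Between the photosystems, the Rieske protein had the smaller and plastocyanin the larger estimated fall. The Rieske protein, the iron-sulphur subunit of cytochrome b6f that takes electrons from plastoquinol, had 2314, 2435, 2204 and 1785 CPM in well-watered DTY-IL and 2040.3, 1388, 1352 and 1882 CPM in stressed DTY-IL. Its Swarna levels were 2779.8, 3634, 2539 and 3536 CPM in control and 854, 1337, 1246 and 1254 CPM under drought. It was the only one of the 9 genes whose DTY-IL control and drought libraries overlapped, which leaves 8 of 9 without overlap in DTY-IL and 9 of 9 in Swarna. Drought libraries lay wholly below control for 16.4% of tested loci in DTY-IL and for 22.3% in Swarna. The log2 change in DTY-IL was -0.39 ± 0.20 (edgeR adjusted p 0.134) and became 0.01 when libraries were scaled by total count alone. In Swarna the Rieske protein fell by 1.41 ± 0.21 on the log2 scale (edgeR adjusted p 1.76e-05), to 37.6% of control.

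Plastocyanin is the copper protein that carries electrons through the lumen to photosystem I. DTY-IL control had 3019, 3133, 2784 and 2793 CPM of it, and DTY-IL drought 1819, 1467, 888 and 1353 CPM. Swarna control spread over 2104, 5230.4, 3426 and 4514 CPM, and Swarna drought over 409, 895, 850.0 and 962 CPM. The Swarna control libraries varied the most of any group and gene among control libraries, with a coefficient of variation of 35.7%, but none came near the Swarna drought libraries. Plastocyanin fell by 1.09 ± 0.29 on the log2 scale in DTY-IL (edgeR adjusted p 0.00685, 47.1% of control) and fell by 2.29 ± 0.31 in Swarna (edgeR adjusted p 6.46e-06, 20.4% of control). Without DTY-IL drought 3, the lowest library of its group, the DTY-IL change was -0.92 and not called.

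Ferredoxin, the soluble iron-sulphur protein that accepts electrons from photosystem I, had the largest estimated fall of the 9 genes in both genotypes. Its levels were 3406, 3471, 2712 and 3662 CPM in well-watered DTY-IL and 848, 642, 403 and 604 CPM in stressed DTY-IL. Swarna control had 3334, 4002, 3779 and 5169 CPM, and Swarna drought 205, 435, 489 and 576 CPM. Drought and control libraries were far apart in both genotypes, while the drought libraries of DTY-IL and Swarna overlapped. Ferredoxin fell by 2.41 ± 0.29 on the log2 scale in DTY-IL (5.31-fold, edgeR adjusted p 3.47e-06) and fell by 3.26 ± 0.30 in Swarna (9.55-fold, edgeR adjusted p 8.16e-08). The remaining level was 18.8% of control in DTY-IL and 10.5% in Swarna, and ferredoxin was called in both genotypes under all 26 alternatives run and under glmTreat, which tests against the fold itself.

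The reductases that take electrons from ferredoxin to NADP+ fell in Swarna but were not called in DTY-IL. LFNR1 had 1185, 1162, 1112 and 1125 CPM in well-watered DTY-IL and 1055, 1100.2, 808 and 926 CPM in stressed DTY-IL. In Swarna it had 956, 922, 944 and 1326 CPM in control and 258, 432, 508 and 508 CPM under drought. The DTY-IL drought libraries lay just below their own controls and overlapped the Swarna controls, whereas every Swarna drought library was below all 12 other libraries. The log2 change of LFNR1 in DTY-IL was -0.24 ± 0.20 (edgeR adjusted p 0.365, 95% interval -0.65 to 0.18), with the sign turned to 0.17 under scaling by total count alone. LFNR1 fell by 1.28 ± 0.20 on the log2 scale in Swarna (edgeR adjusted p 4.02e-05), to 41.1% of control.

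LFNR2, the other leaf isoform, was likewise lowest in Swarna drought. It had 1914, 1976, 1809 and 1323 CPM in well-watered DTY-IL and 1304, 1252, 1159.6 and 1266 CPM in stressed DTY-IL. Swarna control had 2112, 2422, 1883 and 2419.6 CPM, and Swarna drought 431, 683, 803 and 747 CPM. DTY-IL control 4 stood below its group and close to the DTY-IL drought libraries, and all Swarna drought libraries were below all DTY-IL drought libraries. The DTY-IL change was -0.50 ± 0.19 on the log2 scale, which passed the adjusted p narrowly (edgeR adjusted p 0.0498) and left 71.0% of control. With total-count scaling it was -0.09 (edgeR adjusted p 0.728), and with single libraries removed it passed only without DTY-IL control 4 or Swarna drought 1, 2 or 3 (edgeR adjusted p 0.00948 to 0.126 over all removals). In Swarna LFNR2 fell by 1.73 ± 0.20 (edgeR adjusted p 1.16e-06), to 30.1% of control.

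The subunits of the plastid ATP synthase differed from each other in their response. AtpC, the gamma subunit that turns inside the catalytic head and carries the redox switch of the enzyme, had 1655, 1705, 1590.2 and 1588 CPM in well-watered DTY-IL and 799.7, 659, 428 and 654 CPM in stressed DTY-IL. Swarna control had 1529, 2082, 1769 and 2727 CPM, and Swarna drought 174, 299.5, 316 and 389 CPM. AtpC was lower in all drought libraries than in any control library, and all Swarna drought libraries were below all DTY-IL drought libraries. It fell by 1.36 ± 0.24 on the log2 scale in DTY-IL (2.57-fold, edgeR adjusted p 2.27e-04) and fell by 2.78 ± 0.26 in Swarna (6.88-fold, edgeR adjusted p 7.86e-08). This was the second largest estimated fall, after ferredoxin, in each genotype.

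AtpD, the delta subunit that joins the catalytic head to the peripheral stalk, had smaller estimated changes than AtpC. Its levels were 605, 636, 536 and 716 CPM in well-watered DTY-IL and 496, 412, 272 and 364 CPM in stressed DTY-IL. In Swarna they were 562, 922, 673 and 831 CPM in control and 224, 278, 307 and 348 CPM under drought. Drought libraries lay below control libraries in both genotypes, and the drought libraries of both genotypes overlapped. The log2 change of AtpD was -0.69 ± 0.20 in DTY-IL (edgeR adjusted p 0.0105, 61.9% of control), short of the required fold, and -0.30 (edgeR adjusted p 0.202) with total-count scaling. AtpD fell by 1.37 ± 0.20 on the log2 scale in Swarna (edgeR adjusted p 2.12e-05, 38.7% of control).

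**Figure D2:**
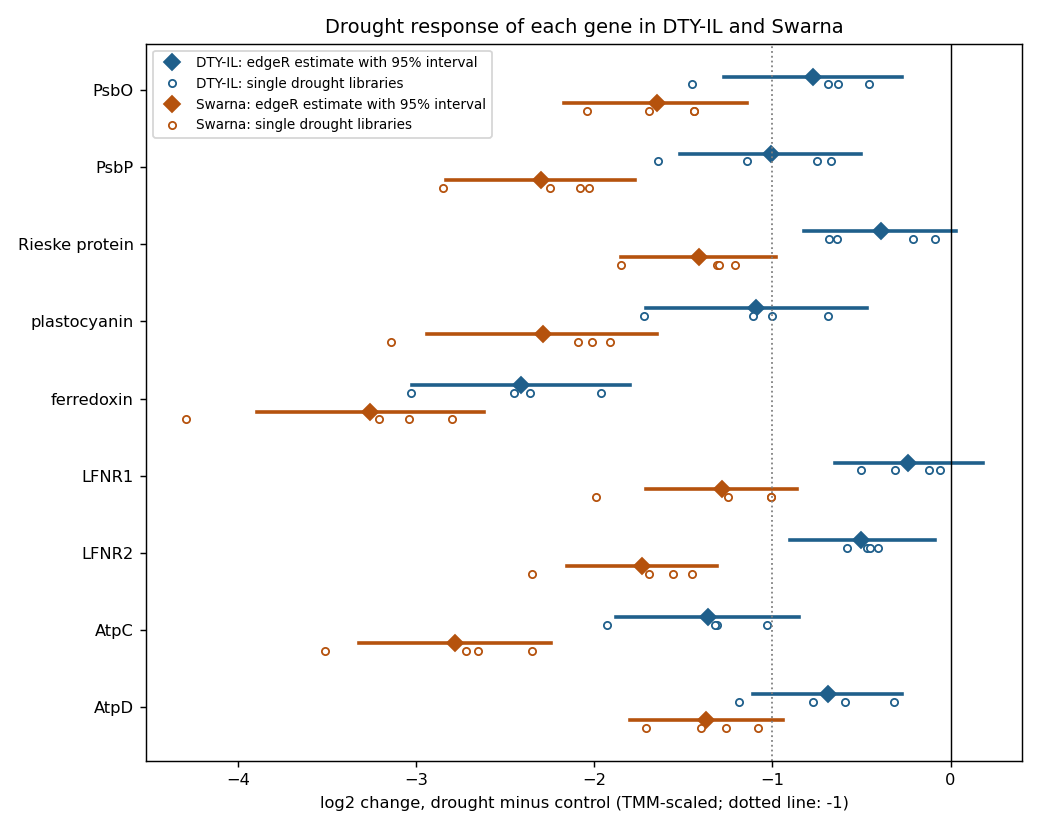
Log2 change with drought (horizontal axis, TMM scaling) of each gene in DTY-IL (blue) and Swarna (orange). Diamonds are edgeR estimates with their 95% intervals and open circles are single drought libraries against the mean of their controls; each Swarna estimate lies further from 0 than the DTY-IL estimate, with Swarna values between -1.28 (LFNR1) and -3.26 (ferredoxin) and DTY-IL values between -0.24 and -2.41 for the same genes. With total-count scaling the DTY-IL values of LFNR1 and the Rieske protein are 0.17 and 0.01.

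The size of these changes depends on how the libraries were brought to a common scale. Scaling by total count alone moved the median log2 change of all tested loci with drought in DTY-IL from 0.03 to 0.43, a shift of 0.40, and in Swarna from 0.06 to 0.70, a shift of 0.65. The 9 genes moved by about the same amounts, to a median of -0.37 in DTY-IL and -1.07 in Swarna. Under that scaling only ferredoxin was called in DTY-IL, at -2.01, and 5 genes were called in Swarna, at -1.63 for PsbP, -1.61 for plastocyanin, -2.59 for ferredoxin, -1.07 for LFNR2 and -2.11 for AtpC. The other Swarna values under that scaling were -0.99 for PsbO, -0.74 for the Rieske protein, -0.62 for LFNR1 and -0.70 for AtpD.

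**Figure D3:**
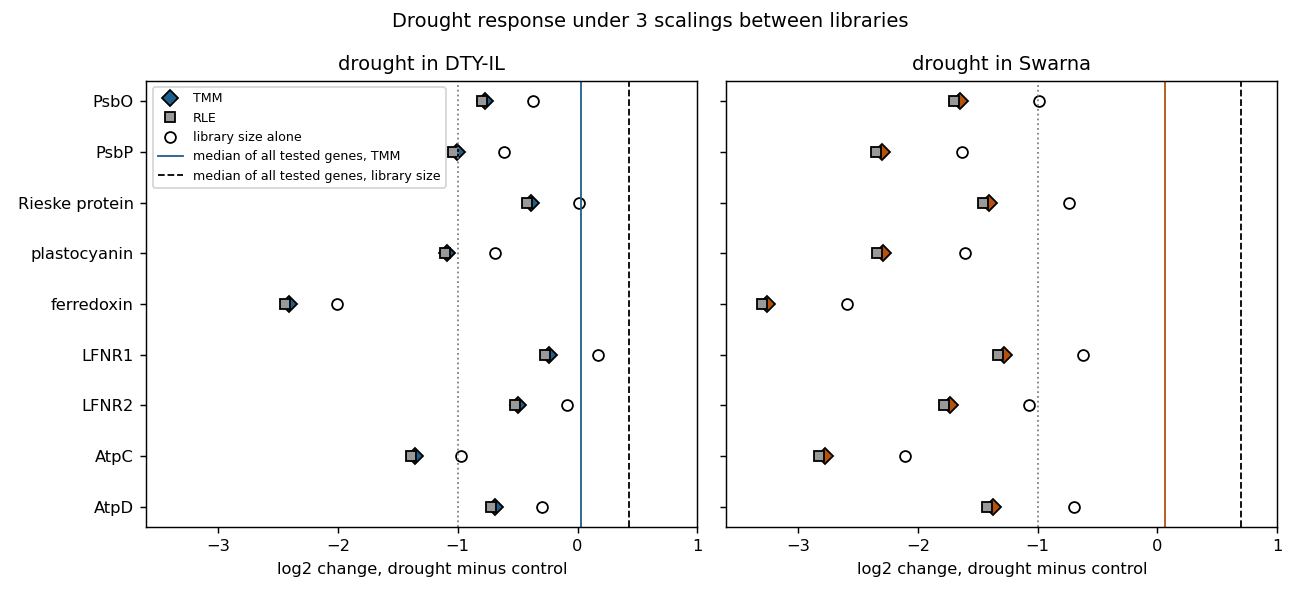
Log2 change with drought (horizontal axes) of each gene in DTY-IL (left) and Swarna (right) under TMM scaling (coloured diamonds), DESeq2-type RLE size factors (grey squares) and total count alone (open circles). Vertical lines mark the median of all 28283 tested loci under TMM (solid, 0.03 and 0.06) and total count (dashed, 0.43 and 0.70) and the dotted line marks -1; with total counts all values shift to the right and the Rieske protein and LFNR1 cross 0 in DTY-IL.

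In well-watered plants 0 of 9 genes were called between DTY-IL and Swarna by edgeR, DESeq2 or limma-voom, where edgeR called 5.11% of tested loci in either direction. At an unadjusted p under 0.05 the count was 1 by edgeR, 2 by DESeq2 and 1 by limma-voom. For 8 genes the value was negative, which is lower in DTY-IL, LFNR1 was at 0.14 ± 0.20, and the median was -0.33. The Rieske protein had the largest difference, -0.52 ± 0.20 on the log2 scale (95% interval -0.94 to -0.09, edgeR adjusted p 0.121), and was the only gene without overlap, with DTY-IL at 1785 to 2435 CPM and Swarna at 2539 to 3634 CPM. In this comparison 9.17% of tested loci had all DTY-IL libraries below all Swarna libraries. The 95% intervals of the other 8 genes each included 0, and were widest for plastocyanin, at -0.99 to 0.23, and narrower for LFNR1, at -0.27 to 0.56, and LFNR2, at -0.74 to 0.08.

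Under drought all 9 genes had a higher mean level in DTY-IL than in Swarna, and 2 of 9 were called, against 4.20% of tested loci called higher. LFNR1 was 2.28-fold higher in DTY-IL, at 1.19 ± 0.20 on the log2 scale (edgeR adjusted p 9.17e-04). AtpC was 2.16-fold higher, at 1.11 ± 0.24 (edgeR adjusted p 0.00629). LFNR2 and PsbP passed the adjusted p below the required fold, with log2 differences of 0.90 ± 0.19 (edgeR adjusted p 0.00574) and 0.84 ± 0.24 (edgeR adjusted p 0.0323), so that 4 of 9 passed by adjusted p alone against 6.83% of tested loci. The remaining 5 genes had log2 differences of 0.42 for AtpD, 0.51 for the Rieske protein, 0.55 for ferredoxin, 0.56 for PsbO and 0.83 for plastocyanin, with edgeR adjusted p from 0.0799 to 0.225. All 4 DTY-IL libraries were above all 4 Swarna libraries for the Rieske protein, LFNR1, LFNR2 and AtpC, which is 4 of 9 against 8.75% of tested loci. The AtpC call was lost without DTY-IL drought 1, at 0.99, and without Swarna drought 1, at 0.94, and with total-count scaling, at 0.96, whereas the LFNR1 call held in 26 alternatives and was lost under glmTreat.

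The interaction asks whether the change with drought itself differed between the genotypes, and it was positive for all 9 genes, meaning a less negative change in DTY-IL. Of these, 5 of 9 were called, against 3.52% of tested loci called in that direction. These were AtpC at 1.42 ± 0.34 on the log2 scale (edgeR adjusted p 0.0204), PsbP at 1.29 ± 0.34 (edgeR adjusted p 0.0314), LFNR2 at 1.24 ± 0.27 (edgeR adjusted p 0.0145), LFNR1 at 1.05 ± 0.28 (edgeR adjusted p 0.0345) and the Rieske protein at 1.02 ± 0.29 (edgeR adjusted p 0.0420). Both leaf reductases were among them, with PsbP of the oxygen-evolving complex and AtpC of the ATP synthase. The interaction also takes in the genotype difference in control, where all of these genes except LFNR1 had a lower estimate in DTY-IL. For the Rieske protein the genotype difference was -0.52 in control (edgeR adjusted p 0.121) and 0.51 under drought (edgeR adjusted p 0.122). Whether the interactions of PsbO and AtpD differed from those of PsbP and AtpC was not tested. Plastocyanin was at 1.21 ± 0.41 (edgeR adjusted p 0.0907), PsbO at 0.89 ± 0.34 (edgeR adjusted p 0.125), AtpD at 0.68 ± 0.28 (edgeR adjusted p 0.167) and ferredoxin at 0.85 ± 0.39 (edgeR adjusted p 0.215). Their 95% intervals were 0.34 to 2.08 for plastocyanin, 0.18 to 1.59 for PsbO, 0.08 to 1.27 for AtpD and 0.03 to 1.67 for ferredoxin.

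Taken library by library against their own control mean, the DTY-IL drought libraries were all less reduced than the Swarna drought libraries for 6 of 9 genes, namely PsbP, the Rieske protein, plastocyanin, LFNR1, LFNR2 and AtpC. The same held for 14.4% of tested loci. LFNR2 and AtpC were called in every fit that left out a library. PsbP, LFNR1 and the Rieske protein lost their calls in many of those fits. Over 25 alternatives other than glmTreat, LFNR2 and AtpC were each called in 24, PsbP and LFNR1 each in 15, and the Rieske protein in 9. Leaving out DTY-IL control 1 or 2, DTY-IL drought 1, Swarna control 4 or Swarna drought 1 or 2 left only LFNR2 and AtpC called, and scaling by total count left only AtpC. A block by the replicate number in the sample description left only LFNR2. Of the 2 listed drought marker loci, 1 was called lower in DTY-IL than in Swarna under drought, and 0 were called in the interaction. The summed level of both loci was 1978, 518, 885 and 2346 CPM in stressed DTY-IL and 4266, 2747, 2886 and 3465 CPM in stressed Swarna. In all controls it was 4.56 to 7.04 CPM. Each DTY-IL drought library was below each Swarna drought library in this sum, and whether that difference bears on the interaction of the 9 genes was not tested.

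Ratios between genes of related function within a library do not depend on scaling between libraries, and 11 of 16 such comparisons passed an exact two-sided permutation test after Benjamini-Hochberg adjustment over the 16. With 4 libraries against 4 the smallest p the exact test can give is 0.0286, which becomes 0.0416 after adjustment. All 11 that passed had this smallest p, so each adjusted value depends on how many of the 16 reached it. Ratios of other pairs of loci were not tested, so no share over all loci stands beside this count. The counts were not corrected for gene length, so only the difference of a ratio between groups is read and not the ratio itself. The ratio of AtpC to AtpD counts lay between 2.22 and 2.97 in well-watered DTY-IL and between 2.26 and 3.28 in well-watered Swarna. Under drought it lay between 1.57 and 1.80 in DTY-IL and between 0.777 and 1.12 in Swarna, so the 3 ranges of control, DTY-IL drought and Swarna drought were separate. On the log2 scale it dropped by 0.68 in DTY-IL and dropped by 1.44 in Swarna (both exact permutation p 0.0286, adjusted 0.0416, 4 libraries a group). Under drought it was 0.73 higher in DTY-IL than in Swarna (exact permutation p 0.0286, adjusted 0.0416), and under control the difference was -0.03 (exact permutation p 0.857, adjusted 0.914).

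Plastocyanin and ferredoxin, the carriers on either side of photosystem I, moved apart with drought. The log2 ratio of plastocyanin to ferredoxin counts was -0.17 ± 0.18 in watered and 1.15 ± 0.04 in stressed DTY-IL plants (SD, n = 4). In Swarna it was -0.15 ± 0.43 in control and 0.89 ± 0.15 under drought. The libraries did not overlap in either genotype, and the differences of 1.32 in DTY-IL and 1.05 in Swarna each had an exact permutation p of 0.0286 (adjusted 0.0416). DTY-IL and Swarna differed in this ratio by 0.25 under drought (exact permutation p 0.0286, adjusted 0.0416) and by -0.01 in control (exact permutation p 0.914, adjusted 0.914). The ratio of PsbO to PsbP was higher under drought by 0.65 in Swarna (exact permutation p 0.0286, adjusted 0.0416) and by 0.25 in DTY-IL (exact permutation p 0.0571, adjusted 0.0762). Between the genotypes it was 0.12 higher in DTY-IL under control (exact permutation p 0.0286, adjusted 0.0416), and the difference under drought was -0.29 (exact permutation p 0.0857, adjusted 0.105). The 2 reductases kept a genotype difference in both treatments, with the log2 ratio of LFNR1 to LFNR2 higher in DTY-IL by 0.50 in control and by 0.29 under drought (both exact permutation p 0.0286, adjusted 0.0416). That ratio was also higher under drought in Swarna by 0.45 (exact permutation p 0.0286, adjusted 0.0416), and by 0.23 in DTY-IL (exact permutation p 0.171, adjusted 0.196). Whether these drought differences themselves differed between the genotypes was not tested.

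**Figure D4:**
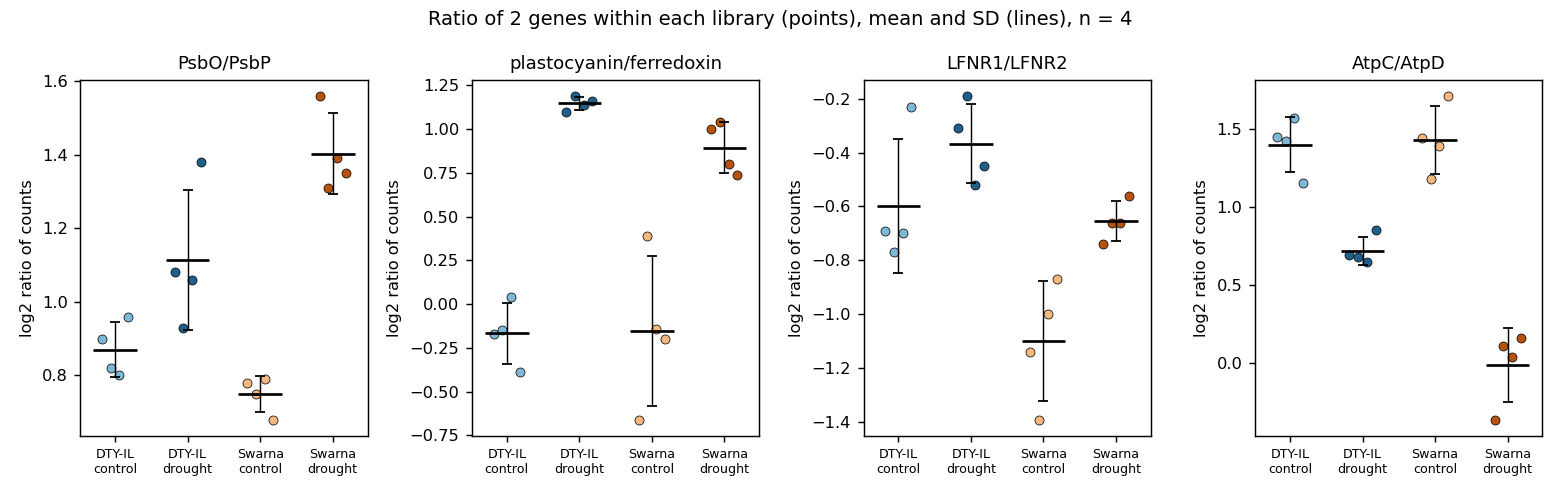
Log2 ratio of the counts of 2 genes within each library (vertical axes, not starting at 0) for PsbO to PsbP, plastocyanin to ferredoxin, LFNR1 to LFNR2 and AtpC to AtpD in the 4 groups. Points are libraries, long lines are means and short lines are SD (n = 4); the AtpC to AtpD ratio has means of 1.40 and 1.43 in the controls of DTY-IL and Swarna and of 0.72 and -0.01 under drought.

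Within groups, the 9 genes moved together from library to library. DTY-IL drought 3 had the lowest level in its group for 9 of 9 genes and DTY-IL drought 1 the highest for 8 of 9. Swarna drought 1 was likewise the lowest of its group for 9 of 9 genes. After the group means were removed, the Pearson correlations of log2 CPM over 16 libraries for the 36 pairs of genes had a median of 0.791, from 0.440 for LFNR2 with AtpD to 0.960 for PsbP with AtpD. These points share libraries and scaling factors, and the values are a description. The coefficient of variation was smallest in DTY-IL control, with a median over the 9 genes of 11.9%, and its median was 21.0% in the Swarna controls, 24.2% in stressed DTY-IL and 24.7% in stressed Swarna.

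Among 5256 other loci whose mean log2 CPM was 5 or more, the locus most like the mean of the 9 genes was LOC_Os09g30340, with a Pearson r of 0.995 over 16 libraries and 0.951 after the group means were removed. This locus stands in the list of photosystem I subunits. The next by the first measure were LOC_Os06g15400 and LOC_Os11g13890 (both 0.991), and by the second LOC_Os06g21590 (0.942) and LOC_Os02g51450 (0.940). LOC_Os11g13890 and LOC_Os06g21590 stand in the list of light-harvesting antenna genes. The first measure includes the drought difference itself, and 455 loci had an r of at least 0.9 by it.

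Other nuclear genes of the same complexes, listed from general knowledge of rice locus numbers, are given here by counts. There were 16 further loci for photosystem II, photosystem I, the plastid ATP synthase and cyclic electron flow. Of these, 6 were called lower in DTY-IL and 16 in Swarna, with median log2 changes of -0.73 and -2.18. Under control 0 of the 16 were called between the genotypes by edgeR, 6 were called higher in DTY-IL under drought, and 13 were called in the interaction with a median of 1.43. The 9 photosystem I loci among them had 8 of 9 called in the interaction, with a median of 1.39, and the 5 photosystem II loci had 3 of 5, with a median of 1.47. Of 12 antenna loci, 7 were called lower in DTY-IL and 12 in Swarna, with medians of -1.07 and -2.82. In the interaction 9 of the 12 were called, with a median of 1.43 and values from 0.69 to 9.81. The highest value was that of LOC_Os01g52240, which stood at -13.30 with drought in Swarna. Of 11 listed Rubisco and Calvin cycle loci 10 were found, and all 10 were called lower in both genotypes, with medians of -2.53 and -3.34. Their interaction values ran from 0.59 to 1.89 with a median of 1.22, and 3 were called. Over all tested loci, 11.5% were called lower in DTY-IL and 17.3% in Swarna. The shares called higher were 4.20% for DTY-IL against Swarna under drought and 3.52% for the interaction.

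Relatives of the 9 genes that work outside green plastids were not called lower. Of the 2 listed root-type FNR loci, which serve non-photosynthetic plastids, 0 were called lower in either genotype and 1 was called higher in Swarna. Their median log2 changes were 0.05 in DTY-IL and 0.55 in Swarna. The 3 listed mitochondrial ATP synthase loci had 0 calls by edgeR in either genotype and medians of -0.23 and -0.11, beside -1.36 and -2.78 for AtpC and -0.69 and -1.37 for AtpD. Whether these groups differed from the 9 genes was not tested.

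**Figure D5:**
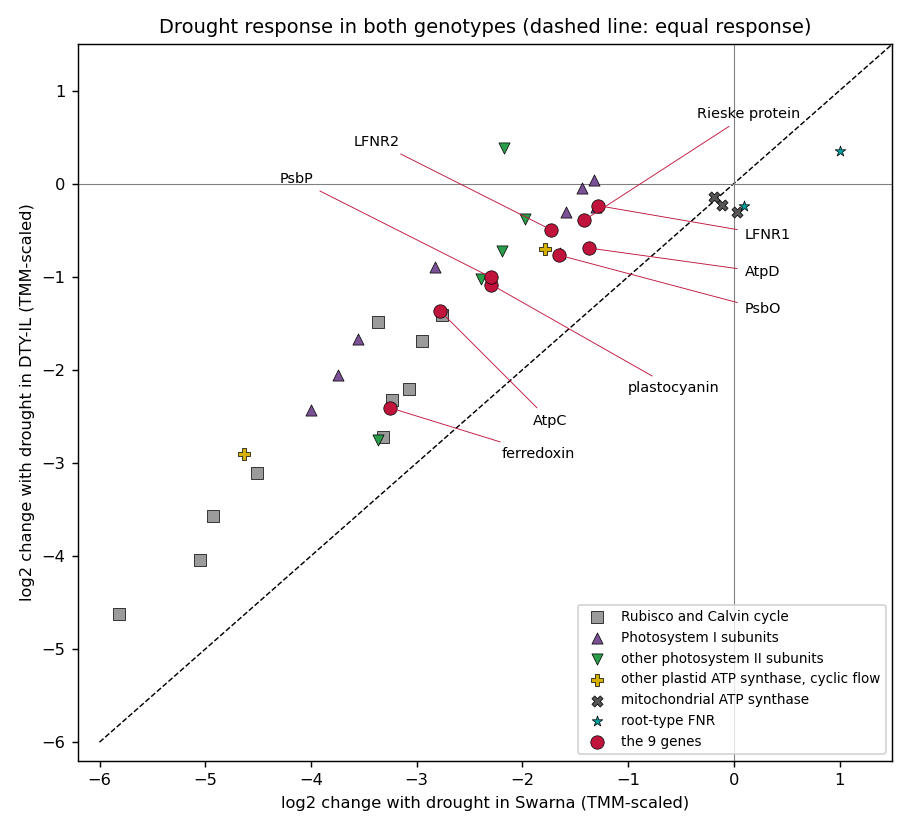
Log2 change with drought in Swarna (horizontal axis) against DTY-IL (vertical axis) under TMM scaling for the 9 genes (red circles, named) and loci of 6 lists. The antenna loci are not drawn. The dashed line marks an equal response; all 9 genes and all photosystem and Calvin cycle loci shown lie above it, while the mitochondrial ATP synthase loci lie between -0.31 and 0.03 on both axes, and with total-count scaling LFNR1 and the Rieske protein lie at 0.17 and 0.01 in DTY-IL.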

How the data were processed

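The sample titles gave genotype and treatment, hence 4 groups of 4 flag-leaf libraries. The authors trimmed reads with Trimmomatic and quantified them with Salmon 0.7.2 in quasi-mapping mode with sequence and GC bias correction, using transcripts extracted with Cufflinks 2.2.1 from the IRGSP-1.0 japonica genome and the MSU annotation. Both genotypes, of indica background, were thus read against japonica transcripts, and the effect on single genes was not tested. Salmon divides reads of similar copies by estimation, so members of gene families can share reads. Each value of the deposited table is an expected count, that is an estimated read number for a gene, aggregated by the authors with tximport, in whole numbers and without normalization. The deposited contrast tables (DESeq2 1.14.1 log2 fold changes, standard errors, test statistics, p-values and mean normalized counts) were not used.

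A quasi-likelihood model of the 4 groups with TMM normalization was fitted in edgeR 4.0.16 (R 4.3.3) to the 28283 of 55801 loci that reached 10 counts over all libraries, and p-values were adjusted by Benjamini-Hochberg over all tested loci. Calls needed a log2 fold change of 1 or more in either direction with an adjusted p not above 0.05. Ratios used a prior count of 2 and exact two-sided permutation tests (SciPy 1.17.1). Log2 fold changes and standard errors come from edgeR, and group means and SD from scaled CPM. The alternatives were RLE size factors, total count alone, TMM without the 20 most abundant loci, no count filter, limma-voom (limma 3.58.1), filterByExpr, glmTreat, DESeq2 1.42.0, a call by adjusted p without the fold, replicate blocks, fits of the groups compared and removal of each library. In simulated counts of 28283 genes, 200 of them changed by 2 on the log2 scale, the fits recovered 194 for drought in DTY-IL. They made 3 false calls there, and for the interaction they recovered 187 of 200 with 8 false calls. The interaction values of the 9 genes, 0.68 to 1.42, were all below the simulated size. The recovery therefore does not tell how often a change near the required log2 fold of 1 is found, and uncalled genes cannot be read as unchanged. Library totals of 14250527 to 19367077 counts make counting error small beside the spread between libraries, which was at least 11.5 times the counting variance for any pair within a group, so no library duplicated another. The labels name no batch or date. All 9 genes were named, and likeness was ranked by Pearson r with their mean. The genes and lists were chosen with earlier results of these data known, and list loci were not checked against an annotation.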

Additional observations from a re-analysis of the deposited data

Results flagged for a closer look

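There were 5 genes with a drought response that differed between DTY-IL and Swarna by the interaction term of the edgeR fit. On the log2 scale these were PsbP at 1.29 (adjusted p 0.0314), the Rieske protein at 1.02 (adjusted p 0.0420), LFNR1 at 1.05 (adjusted p 0.0345), LFNR2 at 1.24 (adjusted p 0.0145) and AtpC at 1.42 (adjusted p 0.0204), each less negative in DTY-IL. Over the alternatives other than glmTreat, under which none was called, their edgeR, DESeq2 or limma adjusted p ranged from 0.00154 to 0.0975 for PsbP, from 0.00248 to 0.0848 for the Rieske protein, from 0.00267 to 0.0978 for LFNR1, from 5.37e-05 to 0.0465 for LFNR2 and from 9.18e-04 to 0.0531 for AtpC.

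Among 52 groups of 4 libraries, 2 had a library that stood apart from the other 3 by Dixon's criterion, where chance at 1 in 20 gives 2.60. LFNR1 in Swarna control 4 had 1326 CPM, against 922 to 956 CPM in the other 3 libraries, a gap of 0.917 of the range. Without that library the log2 change of LFNR1 with drought in Swarna was -1.14 and was still called. The log2 ratio of LFNR1 to LFNR2 in DTY-IL control 4 was -0.23, against -0.77 to -0.69 in the other 3 libraries, a gap of 0.860 of the range. Without it the genotype difference of this ratio under control was 0.38, against 0.50 with all libraries.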

How the results depend on the processing

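Of 441 values of single genes under settings other than glmTreat and removal of a library, 419 kept their direction and their side of the threshold, 19 were no longer called, 1 became called and 2 changed sign. Those 2 were the Rieske protein at 0.01 (edgeR adjusted p 0.981) and LFNR1 at 0.17 (edgeR adjusted p 0.513) for drought in DTY-IL with total-count scaling, neither of which was called before. With a library removed, 681 of 720 were the same, 35 were no longer called, 4 became called and 0 changed sign. The counts of called genes for drought in DTY-IL, drought in Swarna, genotype under drought and the interaction, which were 4, 9, 2 and 5, became 1, 5, 1 and 1 with total-count scaling, where all drought estimates shift upwards with the median of all loci. Under glmTreat, which tests against the fold itself, they were 1, 7, 0 and 0, with 0 genes (genotype under drought) and 1 gene (interaction) at an unadjusted p under 0.05, against 2 and 6 called by DESeq2 and 2 and 5 by limma-voom. By adjusted p alone they were 7, 9, 4 and 5. The control comparison between genotypes stayed at 0 by edgeR in every setting, with 1 gene at an unadjusted p under 0.05 in the reported fit, 2 by DESeq2 and 1 by limma-voom.

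Leaving out each library in turn gave 2 to 4 genes for drought in DTY-IL, with 2 (ferredoxin and AtpC) without DTY-IL drought 3, and 9 in all cases for Swarna. For genotype under drought the range was 1 to 3, with 1 without DTY-IL drought 1 or Swarna drought 1. For the interaction it was 2 to 6, with 6 without DTY-IL drought 3, and with 3 without DTY-IL control 4, DTY-IL drought 2 or Swarna control 2. The control difference of the log2 plastocyanin to ferredoxin ratio lay between -0.18 and 0.17 over these removals and that of AtpC to AtpD between -0.12 and 0.06, with a positive sign without DTY-IL control 4 (0.06 and 0.05), without Swarna control 2 for the first and without Swarna control 4 for the second. The same 11 of 16 ratio comparisons passed without a prior count.

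Libraries with the same replicate number were little more alike than libraries with different numbers. Deviations from the group means had a mean correlation of 0.0341 for libraries with the same title number and -0.0114 for different numbers, and 5 of 16 libraries correlated best with their own number. By the number in the description the correlations were 0.0189 and -0.00409, and the count was 3 of 15. The description numbers go up to 6, and the pot experiment had 6 replications of each genotype and treatment. Whether either number stands for a block of pots was not tested. A replicate block by title number gave 4, 9, 2 and 4 called genes, and a block by the number in the description gave 3, 9, 2 and 1, the last being LFNR2, with AtpC at 1.40 (edgeR adjusted p 0.0531). With TMM-scaled library sizes the summed share of the 9 genes was 2.48% and 3.15% in the controls of DTY-IL and Swarna and 1.31% and 0.803% under drought. With at least 3623 counts of each gene in each library, the spread between 4 libraries and not depth limits these comparisons.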
